A study of Homo sapiens with 2 samples.

Results

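The genes described here are 10 genes linked to cell cycle exit and quiescence: the forkhead factors FOXO1, FOXO3 and FOXO4, the cyclins CCNG1 and CCNG2, the YPEL genes YPEL1, YPEL2, YPEL3 and YPEL5, and PDCD4. They were taken by gene symbol from the 53737 genes of the deposited tables, and all 10 were found. The study has 2 libraries, slow-cycling and non-slow-cycling cells of the Ewing sarcoma cell line SK-ES-1, which the labels give as wild type. No drug, time point or allele is named for either group, and how the groups were separated is not given in the sources used here. The column headers read LRC and non-LRC, terms the sources do not explain, so the direction of each ratio rests on the sample for which each table was deposited.

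Each level below is in per-million units, computed as 2 to the power of the deposited value, less 1. The sums of 983638 units for slow-cycling cells and 984120 for the others lie close to those of a per-length unit such as TPM, but the scale is not stated, and the read depth is unknown. A log2 ratio is log2(level + 1) in the slow-cycling minus log2(level + 1) in the non-slow-cycling library, a scale that understates the difference of low genes. With 1 library per group there is no replicate spread, no error and no test, and in a bulk sample a change in the share of cells that make a transcript and a change in the amount per cell cannot be told apart. In place of a replicate spread, each gene is set beside the genes of like mean level, which were sorted into 20 bins of about 672 genes.

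FOXO proteins are transcription factors that the insulin and growth factor pathway holds in check. The kinase AKT phosphorylates them, 14-3-3 proteins bind them and they leave the nucleus. When that signal falls they enter the nucleus and activate genes of cell cycle arrest, stress resistance, autophagy and cell death. CCNG2, an atypical cyclin linked to arrest, is a known FOXO target, while its relative CCNG1 is a classical target of p53. YPEL proteins are small, strongly conserved zinc-binding proteins, of which YPEL3 has been linked to growth arrest and YPEL5 belongs to the CTLH ubiquitin ligase. PDCD4 binds the RNA helicase eIF4A and holds back translation of structured messages, and growth signals through the kinase S6K lead to its destruction.

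Of the 10 genes, 9 reached the minimum level of 1 unit in at least 1 library, and YPEL2 did not. Of these 9, 6 were higher by 1.2-fold or more in slow-cycling cells, where 17.4% of the 13444 genes above the minimum were, and none was lower by 1.2-fold or more, where 7.59% of all genes were. The 6 were CCNG2, YPEL3, YPEL5, PDCD4, YPEL1 and FOXO3. None differed by 1.5-fold in either direction, against 5.38% of all genes higher and 1.41% lower by that much. A ratio above 0 was found for 7 of the 9, against 56.2% of all genes, and the median log2 ratio was 0.31 over the 9 genes and 0.03 over all genes. The 10 genes were chosen with earlier results of these data known, so these shares are not independent of them.

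The labelled cell type was checked against its markers. All 8 Ewing sarcoma markers were above the minimum level in both libraries, among them CD99 at 213 and 245 units, NKX2-2 at 99.3 and 111 and STEAP1 at 294 and 288. Of the 8, 4 had a ratio above 0 and 4 below, with a median log2 ratio of -0.02. LIPI (0.24) was the highest and NR0B1, at 95.3 and 118 units (-0.30), the lowest and the one past 1.2-fold. Of all genes, 7.59% were lower by that much. The 4 endothelial markers and the immune markers PTPRC and CD3E were listed at 0, as were 3 of the 4 epithelial markers. A 0 can be a failed estimate here, so these listings do not show that such cells were absent. Some markers of other cell types moved with these genes. Of 5 fibroblast markers 4 were above the minimum, each past 1.2-fold on the higher side, where 17.4% of all genes were. The list summed to 29.8 units in slow-cycling cells and 20.4 in the others. The immune genes CD68, at 4.36 and 2.28 units, and LYZ, at 8.45 and 6.66, were higher too. Their part in the ratios of the FOXO, cyclin G, YPEL and PDCD4 genes was not tested.

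**Figure D1:**
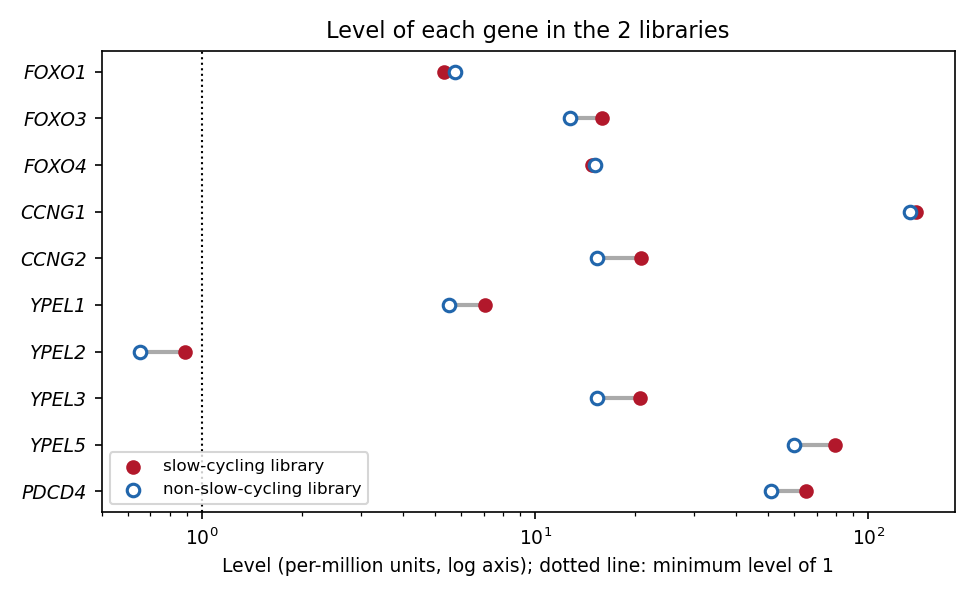
Level of each of the 10 genes (horizontal log axis, per-million units) in the slow-cycling library (filled red) and the non-slow-cycling library (open blue). CCNG1 is the most abundant at 139 and 133 units, YPEL2 lies below the minimum level of 1 in both libraries, and the gap between the libraries is small beside the spread of levels among the genes.

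The levels spanned a wide range. In the slow-cycling library CCNG1 was highest at 139 units, followed by YPEL5 at 79.2 and PDCD4 at 65.2. CCNG2 and YPEL3 lay next at 20.8 and 20.7 units, too close to be ordered, and FOXO3 and FOXO4 followed at 15.9 and 14.8. YPEL1, at 7.09 units, and FOXO1, at 5.33, were low, and YPEL2 was lowest at 0.888. The order of the non-slow-cycling library differed only among close neighbours, with YPEL3 and CCNG2 both at 15.3 units, FOXO4 at 15.1, FOXO3 at 12.7, and FOXO1 at 5.75 above YPEL1 at 5.51.

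Among the FOXO factors only FOXO3 was past 1.2-fold, and its ratio came to 0.04 when FOXO3B, a copy that shares part of its sequence, was added to it. FOXO3, on chromosome 6 (108559825 to 108684774, GRCh38), was at 15.9 units in slow-cycling cells and 12.7 in the others, a log2 ratio of 0.30, and 83 of the 672 genes of like level had a higher ratio. FOXO3B, a copy of FOXO3 on chromosome 17 (18667629 to 18682314) that GENCODE release 29 classes as a processed pseudogene, was at 12.6 and 15.0 units, a log2 ratio of -0.23. The copy thus lay on the other side of 0. Of the stretches of 50 bases in the annotated FOXO3B transcript, 64.2% occur without a mismatch in FOXO3 transcripts, and 15.7% of those in FOXO3 occur in FOXO3B. How the authors assigned such reads is not given in the sources used here. Summed, a step chosen after seeing the data, FOXO3 and FOXO3B were at 28.5 and 27.7 units, a log2 ratio of 0.04. If the units are scaled by length, this sum is not the ratio of the pooled reads of the 2 genes. Most stretches of FOXO3 do not occur in FOXO3B, and the part of shared reads in the FOXO3 ratio was not tested.

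FOXO1 and FOXO4 were close to equal in the libraries. FOXO1, on chromosome 13 (40555667 to 40666641), was at 5.33 units in slow-cycling cells and 5.75 in the others, a log2 ratio of -0.09. Low genes tended to be higher in the slow-cycling library, and genes of the level of FOXO1 had a median log2 ratio of 0.12, so that 78.6% of them had a higher ratio than FOXO1. FOXO4, on chromosome X (71095851 to 71103532), was at 14.8 and 15.1 units, a log2 ratio of -0.02, within the middle 50% of genes of like level (-0.07 to 0.17). FOXO6, the remaining family member and not one of the 10 genes, was at 27.1 and 27.2 units, a log2 ratio of 0.00. That is above each of the other FOXO genes in these units, whose scaling by length is not known.

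The cyclins of the G type differed from each other. CCNG2, on chromosome 4 (77157207 to 77170060), was at 20.8 units in slow-cycling cells and 15.3 in the others. Its log2 ratio of 0.42, the highest of the 10 genes, was exceeded by 21 of the 672 genes of like level, or 3.12%. CCNG1, on chromosome 5 (163437571 to 163457640), was at 139 and 133 units, a log2 ratio of 0.07. Genes as abundant as CCNG1 had a median log2 ratio of -0.07 and a middle 50% from -0.16 to 0.03, and 16.8% of them lay above CCNG1. The RefSeq model of CCNG1 overlaps that of NUDCD2, which was listed at 0 in both libraries, and how reads of the shared part were assigned is not given in the sources used here. CCNI, a related atypical cyclin, was at 222 and 199 units with a log2 ratio of 0.15.

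All 4 YPEL genes had the higher value in the slow-cycling library, with YPEL2 too low to be counted. YPEL5, on chromosome 2 (30147007 to 30160533), was at 79.2 units in slow-cycling cells and 59.8 in the others, a log2 ratio of 0.40. Only 7 of the 672 genes of like level, 1.04%, had a higher ratio, which placed YPEL5 farther out among its neighbours in level than the other genes of the group. YPEL3, on chromosome 16 (30092314 to 30096213), was at 20.7 and 15.3 units, a log2 ratio of 0.41 that 3.27% of genes of like level exceeded.

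YPEL1, on chromosome 22 (21697536 to 21735794), was at 7.09 units in slow-cycling cells and 5.51 in the others, a log2 ratio of 0.31. At that low level ratios spread more widely, and 22.9% of genes of like level were higher. YPEL1 overlaps PPIL2, a gene on the opposite strand at 29.7 and 33.3 units with a log2 ratio of -0.16, and whether the counting used strand is not given in the sources used here. YPEL2, on chromosome 17 (59331655 to 59401729), was at 0.888 and 0.653 units, a log2 ratio of 0.19 that rests on levels under the minimum. YPEL4, which is not one of the 10 genes, was at 0.622 units and listed at 0, also under the minimum. The YPEL5 pseudogenes YPEL5P1, YPEL5P2 and YPEL5P3 were listed at 0 in both libraries and share no stretch of 50 bases with YPEL5 transcripts.

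PDCD4, on chromosome 10 (110871928 to 110900006), was at 65.2 units in slow-cycling cells and 50.9 in the others, a log2 ratio of 0.35. Of the 672 genes of like level, 22 had a higher ratio, or 3.27%. Both genes that overlap it on the opposite strand in GENCODE release 29 had the lower value in the slow-cycling library. The long non-coding PDCD4-AS1 was at 3.86 and 4.24 units, and BBIP1, a subunit of the complex that sorts proteins into cilia, at 8.01 and 9.40.

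**Figure D2:**
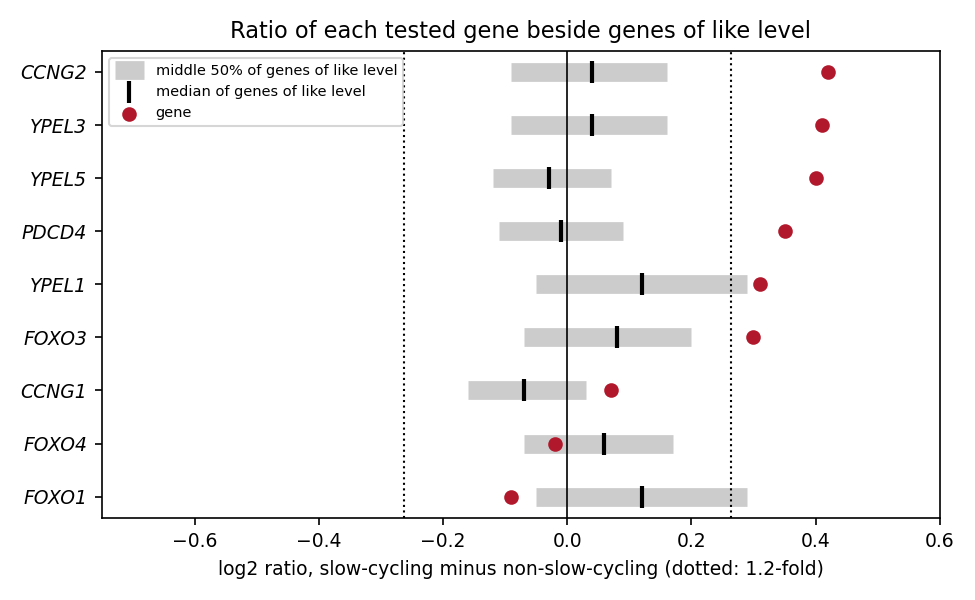
The log2 ratio of each of the 9 genes above the minimum level (red points), beside the median (black tick) and the middle 50% (grey band) of the 672 genes of like level. CCNG2, YPEL3, YPEL5 and PDCD4 lie at 0.35 to 0.42, well to the right of their bands, YPEL1 lies just beyond its band, and FOXO1 lies to the left of its band.

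The ratios of all genes moved with level, from a median of 0.23 on the log2 scale at 1 to 2 units to -0.06 at 64 units and above. With that trend removed, CCNG2 was at 0.38, YPEL3 at 0.37, YPEL5 at 0.43 and PDCD4 at 0.36, all past 1.2-fold. FOXO3, at 0.22, and YPEL1, at 0.20, no longer were, so that 4 of the 9 genes were past 1.2-fold where 11.6% of all genes were. FOXO1 stood at -0.21 and CCNG1 at 0.14 on that scale. The 4 genes with a ratio past 1.2-fold varied in length and base composition. Their longest coding transcripts measure 5526 bases for CCNG2, 1941 for YPEL3, 2560 for YPEL5 and 3697 for PDCD4, with GC contents of 40.8%, 57.2%, 40.3% and 38.9%.

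**Figure D3:**
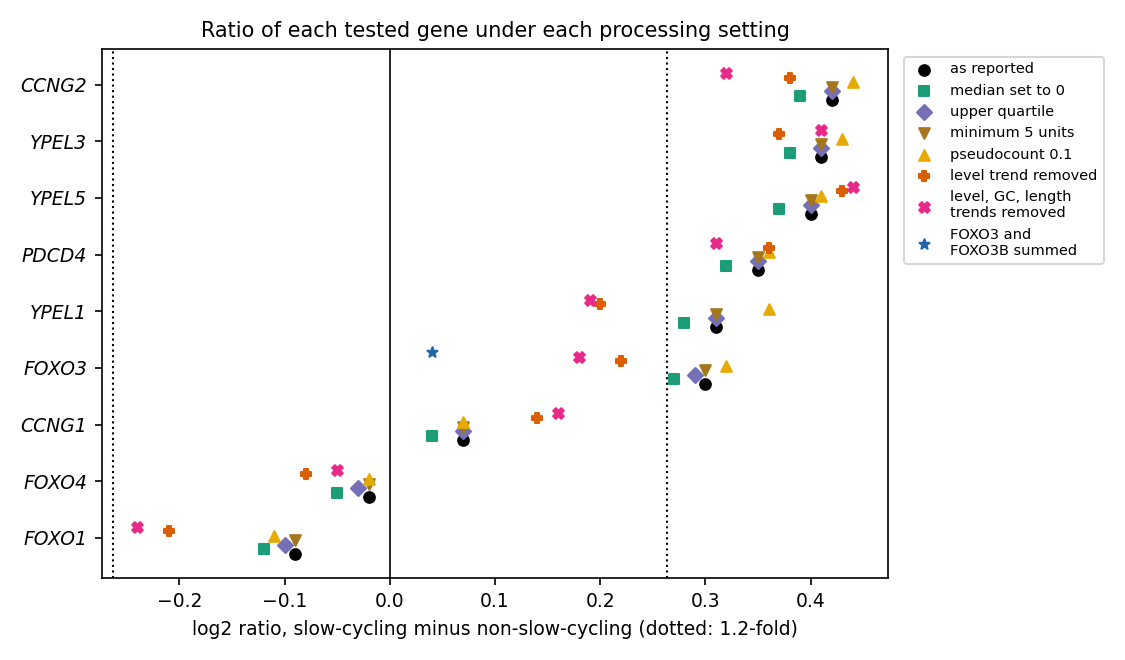
The log2 ratio of each of the 9 genes under each processing setting (symbols), with dotted lines at 1.2-fold. CCNG2, YPEL3, YPEL5 and PDCD4 stay right of the line under every setting drawn, YPEL1 and FOXO3 fall short of it where the level trend is removed, and FOXO3 falls to 0.04 when summed with FOXO3B. The change of minimum level cannot alter the ratio of a single gene.

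Because CCNG2, YPEL3, YPEL5 and PDCD4 had the highest ratios, the 250 bases before their start sites are shown, from RefSeq on GRCh38.p14 and 5′ to 3′ on the strand of the gene. They are chr4:77156957-77157206 (plus strand) for CCNG2, chr16:30096214-30096463 (minus strand) for YPEL3, chr2:30146757-30147006 (plus strand) for YPEL5 and chr10:110871678-110871927 (plus strand) for PDCD4. Capitals mark the letters of the forkhead core GTAAACA, the shorter forkhead motif AAACAA, the E-box CACGTG and the box spelled CCAAT, matched on either strand of the gene.
CCNG2: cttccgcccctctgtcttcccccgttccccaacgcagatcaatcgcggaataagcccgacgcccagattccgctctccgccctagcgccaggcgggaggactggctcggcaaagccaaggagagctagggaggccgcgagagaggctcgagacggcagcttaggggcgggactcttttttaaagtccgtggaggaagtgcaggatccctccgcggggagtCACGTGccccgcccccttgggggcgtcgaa
YPEL3: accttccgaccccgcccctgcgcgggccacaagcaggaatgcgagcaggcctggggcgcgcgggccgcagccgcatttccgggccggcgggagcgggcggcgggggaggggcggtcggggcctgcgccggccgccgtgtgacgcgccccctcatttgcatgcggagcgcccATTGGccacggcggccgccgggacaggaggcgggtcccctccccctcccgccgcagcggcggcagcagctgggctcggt
YPEL5: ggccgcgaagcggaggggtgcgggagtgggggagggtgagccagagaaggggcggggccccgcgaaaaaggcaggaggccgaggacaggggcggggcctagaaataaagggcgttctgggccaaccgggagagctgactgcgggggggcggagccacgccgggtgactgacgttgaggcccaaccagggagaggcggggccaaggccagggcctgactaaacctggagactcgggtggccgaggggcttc
PDCD4: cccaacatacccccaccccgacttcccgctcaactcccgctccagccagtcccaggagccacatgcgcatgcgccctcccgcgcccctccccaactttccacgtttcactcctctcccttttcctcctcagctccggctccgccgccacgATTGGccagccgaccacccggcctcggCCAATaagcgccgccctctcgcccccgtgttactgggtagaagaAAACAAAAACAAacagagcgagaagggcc

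The search covered windows of 300 bases, 250 before and 50 after the start, in 9 of the 10 genes. YPEL1 had no entry. The forkhead core was found in YPEL3 and FOXO4, 2 of 9 genes, and in 3.42% of all 35116 windows. In YPEL3 it begins at the first transcribed base, and in FOXO4 at base 24 of the transcript. The 30 bases around each, with the core in capitals, run from chr16:30096195-30096224 (minus strand) and chrX:71095863-71095892 (plus strand).
YPEL3: ctgggctcggtGTAAACAagtccaggcgcc
FOXO4: cccggcgagtgGTAAACAgagacgtcagga

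The log2 ratios of the genes with the core were 0.41 for YPEL3 and -0.02 for FOXO4. The shorter motif AAACAA was found in CCNG2, PDCD4 and YPEL3 and in 17.9% of all windows. In YPEL3 it overlaps the core, and in PDCD4 there are 2 adjoining matches, which begin 29 and 23 bases before the start. A CCAAT box was found in 5 of the 9 genes, CCNG1, FOXO1, PDCD4, YPEL2 and YPEL3, and in 34.6% of all windows, and CCNG1 held 4 of them. An E-box was found in CCNG2 alone, 30 bases before the start, and in 7.26% of all windows. The YPEL5 window held none of the 4 motifs.

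Genes known as FOXO targets were past 1.2-fold on the higher side more often than all genes. The list was chosen with earlier results of these data known, so the comparison is not independent of them. Of 35 on the list, 26 were above the minimum level. Of these, 12 were higher and 2 lower by 1.2-fold or more. That is 46.2% higher by 1.2-fold, where 17.4% of all genes were, and 7.59% of all genes were lower by that much. Their ratio was above 0 for 20 of 26, against 56.2% of all genes. The median log2 ratio was 0.23, and 0.20 over the 25 genes other than CCNG2. Of the list, 6 genes were listed at 0 in both libraries, among them PCK1, G6PC and TRIM63. Since a 0 can be a failed estimate in these tables, nothing is read from these listings.

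The transcription factor KLF2, linked to quiescence of lymphocytes and endothelium, was at 11.2 and 3.33 units, a log2 ratio of 1.5. KLHL24, a ubiquitin ligase adaptor, was at 17.6 and 10.3 units (0.72), and TXNIP, an inhibitor of thioredoxin and of glucose uptake, at 123 and 81.3 (0.59). These 3 were past 1.5-fold, where 5.38% of all genes were higher by that much. The mitophagy receptor BNIP3, at 266 and 181 units, and the autophagosome genes MAP1LC3B, at 45.6 and 31.2, and GABARAPL1, at 151 and 110, were past 1.2-fold. So were the MYC antagonist MXI1, at 33.4 and 23.4 units, the stress-induced mTORC1 inhibitor SESN3, at 9.06 and 6.26, and the cell death gene BBC3, at 8.95 and 6.46.

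Other FOXO targets were level or lower. The CDK inhibitor CDKN1B was at 57.9 and 55.6 units, a log2 ratio of 0.06, and the pocket protein RBL2 at 40.6 and 42.4 (-0.06). The cell death gene BCL2L11 was at 3.25 and 3.56 units (-0.10), SOD2, a mitochondrial superoxide dismutase, at 30.9 and 29.7 (0.06), and catalase, CAT, at 36.3 and 33.7 (0.10). The mitochondrial kinases PDK4, at 0.432 and 1.07 units, and PINK1, at 18.9 and 23.0, were lower by 1.2-fold or more. PDK4 reached the minimum level only in the library where it is higher, so it was counted only because of that library and its place among the lower genes is tied to the filter. Many of these genes have other regulators as well, such as oxygen for BNIP3, glucose for TXNIP and early response signals for KLF2, and the part of FOXO in these differences was not tested.

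The insulin and AKT arm upstream of FOXO had a median log2 ratio of 0.13 over 21 genes, all above the minimum level, with 4 past 1.2-fold on the higher side and 0 on the lower. That is 19% of the arm on the higher side, close to the 17.4% of all genes. The kinase gene AKT1 was at 67.4 units in slow-cycling cells and 76.1 in the others (-0.17), and AKT2 at 66.6 and 65.7 (0.02). The receptors INSR, at 13.4 and 10.8 units, and IGF1R, at 13.7 and 10.7, had log2 ratios of 0.29 and 0.32, and RICTOR, the mTORC2 subunit, was at 13.8 and 10.9 (0.32). INSR and RICTOR are also on the list of FOXO targets. With the level, GC and length trends removed, a step added after seeing the data, the median of this arm was 0.03.

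Proteins that bind or modify FOXO had a median log2 ratio of 0.05 over 23 of 24 genes. None was lower by 1.2-fold or more, against 7.59% of all genes, and 1 was higher, or 4.35% against 17.4%. That gene was DYRK1A, a kinase that phosphorylates FOXO1 and also assembles the DREAM repressor complex, at 30.1 and 22.6 units (0.40). Of the 14-3-3 genes, 6 had ratios below 0, from -0.18 for YWHAB and YWHAQ to -0.01 for YWHAH, but with the level trend removed only 3 of the 6 did. The remaining gene, SFN, was listed at 0. The deacetylase SIRT1 was at 46.8 and 40.4 units (0.21), the glycosyltransferase OGT at 149 and 127 (0.23) and the arginine methyltransferase PRMT1 at 354 and 412 (-0.22).

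Targets of p53, the list to which CCNG1 belongs, showed no common direction. Of 26 genes 25 were above the minimum level, 13 of them higher and 12 lower in slow-cycling cells, with a median log2 ratio of 0.01. Past 1.2-fold were 4 on the higher side, 16% against 17.4% of all genes, and 2 on the lower, where 7.59% of all genes were. The stress-induced SESN2 was at 13.4 and 8.14 units (0.66), BBC3 is given above, and the DNA polymerase POLH was at 12.1 and 8.83 (0.41). CDKN1A, the CDK inhibitor, was at 1.67 units in slow-cycling cells and was listed at 0 for the rest. CDKN1A is 1 of the 4 higher genes, but it reached the minimum level only in the slow-cycling library. Its place among the higher genes is thus tied to the filter. Its ratio rests on the pseudocount and on a 0 that can be a failed estimate. TP53I3, an oxidoreductase, was at 3.94 and 6.41 units (-0.58) and FDXR, a mitochondrial reductase, at 14.3 and 18.1 (-0.32). MDM2, which like CCNG1 is a standard p53 target, was at 53.6 and 48.8 units (0.13).

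Cyclins G bind subunits of the phosphatase PP2A. The median log2 ratio of 11 partner genes, PP2A subunits plus GAK and MDM2 and all above the minimum, was 0.00. None was lower by 1.2-fold or more, against 7.59% of all genes, and 1 was higher, or 9.09% against 17.4%. That gene was the regulatory subunit PPP2R5B, at 15.3 and 10.6 units (0.49). The regulatory subunits PPP2R5A (0.26), PPP2R5C (0.20) and PPP2R5E (0.20) were also above 0, PPP2R5D was at 85.4 and 85.3 units, and the catalytic subunit PPP2CA had a log2 ratio of 0.00. Of the 11 genes, 6 had a ratio above 0 and 5 below, among the latter PPP2R1A (-0.12), PPP2R1B (-0.10) and PPP2CB (-0.07).

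The other subunits of the CTLH ubiquitin ligase had smaller ratios than YPEL5. Of 10 genes none was past 1.2-fold in either direction, against 17.4% of all genes higher and 7.59% lower, and the median log2 ratio was 0.07. WDR26 was at 64.6 and 53.7 units (0.26), MKLN1 at 58.0 and 49.1 (0.23) and RANBP9 at 75.1 and 65.6 (0.19), and 5.36%, 6.40% and 8.04% of genes of like level had a higher ratio. The catalytic subunits RMND5A and MAEA had log2 ratios of 0.10 and -0.10, and RMND5B was at 23.9 and 26.8 units (-0.16). The YPEL5 log2 ratio of 0.40 lay above each of them. Whether that gap exceeds replicate error could not be tested.

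The translation factors on which PDCD4 acts had a median log2 ratio of -0.06 over 14 of 16 genes. None was lower by 1.2-fold or more, against 7.59% of all genes, and 1 was higher, or 7.14% against 17.4%. It was EIF4A2, a helicase that PDCD4 can bind, at 596 and 489 units (0.29). EIF4A1, its close relative and the main helicase, was listed at 0 in both libraries, as was the cap-binding factor EIF4E. Growing cells need both genes, so a listing at 0 can be a failed estimate and says nothing of their level. The S6 kinase genes that mark PDCD4 for destruction were lower in slow-cycling cells by small amounts, RPS6KB1 at 27.2 and 30.2 units (-0.15) and RPS6KB2 at 38.0 and 43.4 (-0.19). The ubiquitin ligase adaptors that then bind it, BTRC and FBXW11, had log2 ratios of 0.09 and 0.13. EIF4EBP1, a second kind of translation inhibitor, went the other way from PDCD4, at 366 and 438 units (-0.26).

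**Figure D4:**
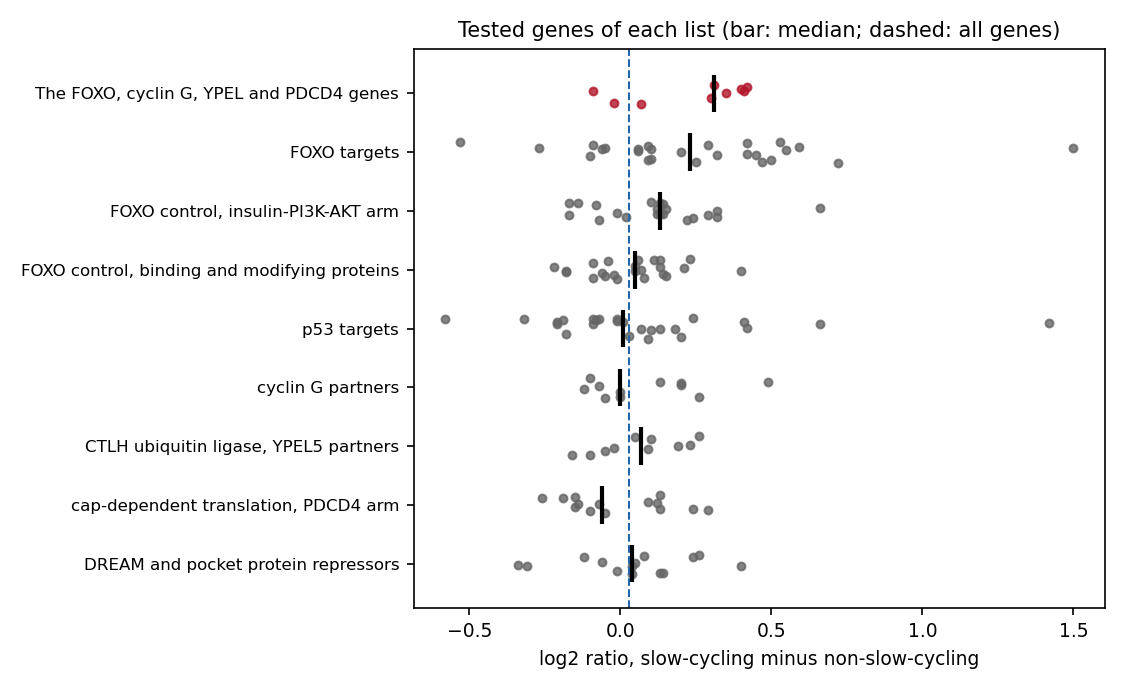
The log2 ratio of each gene above the minimum level (points) in the 10 genes described here (red) and in the lists of related genes (grey), with the median of each list (black bar) and of all genes (dashed line). FOXO targets are centred on 0.23 and spread from PDK4 at -0.53 to KLF2 at 1.5, while p53 targets, cyclin G partners, CTLH subunits and translation factors are centred between -0.06 and 0.07.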

How the data were processed

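Per the labels' protocols, RNA was isolated with a phenol reagent and libraries were made with a stranded kit that selects polyadenylated mRNA. The submitters' processing notes name the build hg38. No source used here gives the aligner, counter or annotation. The deposited values are called normalized per the file headers and were taken as log2(value + 1) from their range, with no negative value and a highest value of 15.6 and 15.2. The 53826 lines of each table were summed by Entrez ID to 53737 genes, of which 51252 matched RefSeq (GRCh38.p14), the source of coordinates.

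Genes with at least 1 unit in 1 library were kept (13444). Folds of 1.2 and 1.5 were counted, and no p-value was computed. Counting at 1.5-fold and trend removal were tried on simulated data, with seeded shifts larger than any ratio of the 10 genes. Counting at 1.2-fold was not tried in this way. Transcript length and GC content came from GENCODE release 29 and covered all 10 genes and 88.1% of the genes kept. Alternatives were other scalings, filters and pseudocounts, removal of trends, and protein-coding genes alone. Python 3.11.15, pandas 2.3.3 and numpy 2.4.6 were used.

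The 10 genes and all lists were chosen with earlier results of these data known. In each list the genes past 1.5-fold, or else the 4 with the largest absolute ratio, were to be named, along with the 10 genes, their relatives and the markers. Other genes were named after their values were seen, for their role. A few genes named by this rule are left unreported. Protein sequences were not used here.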

Additional observations from a re-analysis of the deposited data

How the results depend on the processing

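No paired analysis was possible because each group had 1 library, and leaving a library out was not possible for the same reason. Over 9 genes and 82 alternative values, 76 moved by less than 0.1 on the log2 scale, 6 moved by more and none called at 1.2-fold changed sign. Most of the 76 were fixed in advance. The changes of filter and the restriction to protein-coding genes cannot alter the ratio of a single gene. The scalings moved each of the 9 genes by less than 0.1. Only the pseudocount, the removal of trends and the sum with FOXO3B could move single genes apart to any extent. The 6 were FOXO1 at -0.21 with the level trend removed and -0.24 with the level, GC and length trends removed, YPEL1 at 0.20 and 0.19, FOXO3 at 0.18 with all trends removed, and FOXO3 at 0.04 when summed with FOXO3B. The median log2 ratio of the 9 genes ranged from 0.19, with all trends removed, to 0.36, with a pseudocount of 0.1. The number at least 1.2-fold higher was 4 under either removal of trends and 6 under each of the other settings, and no gene was at least 1.2-fold lower, or past 1.5-fold higher, under any of the 10 settings. YPEL2 entered only with no filter. The FOXO target median ranged from 0.16 to 0.29. The share of all genes at least 1.2-fold higher was 10.3% with all trends removed and 19.8% with a pseudocount of 0.1. Removal of all trends, the minimum of 4 units in both libraries, the sum with FOXO3B and the list without CCNG2 were chosen after seeing the data. Depth is unknown, so the counting error of low genes such as FOXO1 and YPEL1 could not be given.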

Other observations

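The DREAM complex and the pocket proteins, which repress cell cycle genes in resting cells, had a median log2 ratio of 0.04 at the RNA. Of 14 genes, 2 were lower by 1.2-fold or more, where 7.59% of all genes were. Higher by that much was 1, or 7.14% against 17.4% of all genes. DYRK1A, whose kinase activity assembles DREAM, was the higher one. Its substrate LIN52 was at 15.3 units in slow-cycling cells and 19.6 in the others (-0.34), and the E2F partner TFDP1 at 127 and 157 (-0.31), while TFDP2 was at 30.2 and 25 (0.26). RB1 was at 44.8 and 43.7 units, and E2F4 at 47.0 and 44.4.

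Markers of dividing cells went both ways in the slow-cycling library, with 4 of 8 above 0 and 4 below. By 1.2-fold or more, 1 of the 8 was higher, where 17.4% of all genes were, and 2 were lower, where 7.59% were. Lower by 1.2-fold or more were CCNE2, a cyclin of S phase entry, at 32.4 and 42 units (-0.37), and the replicative helicase subunit MCM5 (-0.36), and the polymerase clamp PCNA was at 457 and 538 (-0.24). MYBL2 had a log2 ratio of -0.16. TOP2A, at 234 and 184 units (0.34), was past 1.2-fold on the higher side, MKI67 was at 122 and 107, and CCNB1 had a log2 ratio of 0.19. FOXM1, a forkhead factor of mitotic genes that FOXO proteins are known to oppose, was at 195 and 182 units, a log2 ratio of 0.10.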
